A study of Caenorhabditis elegans with 2 samples.

Results

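Small nucleolar RNA (snoRNA) genes that do not lie wholly inside a protein-coding gene on the same strand are called free snoRNA genes here, and the places where tagged ALY-2 was found at them are described. They number 163 of the 346 snoRNA genes, and of 46890 nuclear genes of all kinds, in the Ensembl release 115 annotation of the worm genome WBcel235, which is the same assembly as ce11. The rule used annotation alone and no measured value, but it was chosen with earlier results of these data known. The other 183 snoRNA genes lie inside a protein-coding gene on the same strand and are called hosted.

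Chromatin immunoprecipitation and sequencing (ChIP-seq) was done on whole Caenorhabditis elegans L4 larvae of strain OP217, genotype unc-119(ed3) III; ddIs172, which carries a transgene for ALY-2 with GFP and FLAG joined to its C-terminus. There was 1 group of 2 biological replicates, both of pooled male and female animals and both from 1 line, so no conditions were compared. The labels list no mutation of the native aly-2 gene, name no promoter for the transgene, and give aly-2 as the antibody. The values are peak lists made by the authors, so read depth is unknown and only the number of peaks and the replicates limit the precision.

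A snoRNA is a short RNA that works in a protein particle in the nucleolus. Box C/D snoRNAs guide 2′-O-methylation and box H/ACA snoRNAs guide pseudouridylation of ribosomal and other RNAs, and each class is known by short sequence boxes in the RNA. Many worm snoRNAs are made from the introns of host genes, while others are transcribed from promoters of their own, either by RNA polymerase II or, with A and B boxes like those of transfer RNA (tRNA) genes, by RNA polymerase III. ALY-2 belongs to the Aly/REF family of adaptors for messenger RNA export, a family known for work on polymerase II transcripts.

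A gene was counted for a list when a peak summit, the base that the list marks as the peak's highest point, lay within 200 bp of the annotated start or inside the gene. The authors' reproducible list has 193 peaks, those past their optimal cut on the irreproducible discovery rate (IDR), which scores how well the rank of a peak repeats between replicates. In it, 14 free snoRNA genes had a summit, which is 8.59% of them, against 0.459% of all nuclear genes. A place in this list does not mean a listed summit in both replicates, since 3 of these 14 genes had none in replicate 1. In the permissive list from both replicates combined, with 3341 peaks, 34 free snoRNA genes had one, or 20.9%, against 5.72% of all nuclear genes. The lists of single replicates were much longer and stood closer to the background. In replicate 1, 33 free genes or 20.2% had a summit, against 21.7% of all nuclear genes, so this count is no higher than the background. In replicate 2, 66 free genes or 40.5% had one, against 30.0% of all nuclear genes. Protein-coding genes, which are long, raise these backgrounds through summits inside the gene. The highest-signal summit of the gene lay within 200 bp of the start at 0.145% of them in the reproducible list and 2.13% in the combined list. In replicate 1 it did so at 6.45% and in replicate 2 at 10.9%. A start summit with a higher one further inside the gene is missed here, so these start shares are lower bounds. No set or chance test was made, and all shares are given as descriptions.

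The sequences below show why the start regions are described closely. Each runs from 110 bp upstream of the annotated start to 15 bp into the gene, 5′ to 3′ on the strand of the snoRNA, and was read from the RefSeq WBcel235 genome. In the first 6, capitals mark a match to the A box consensus of tRNA promoters and a downstream B box, GTTCNANNC, and the first 4 of these had a reproducible summit while the last 2 had no summit in any list.
Y75B12B.12 (chrV:15191079-15191203, minus strand): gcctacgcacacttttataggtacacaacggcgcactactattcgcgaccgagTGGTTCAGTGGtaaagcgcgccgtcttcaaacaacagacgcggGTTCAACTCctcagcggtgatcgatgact
F32E10.10 (chrIV:7574012-7574136, plus strand): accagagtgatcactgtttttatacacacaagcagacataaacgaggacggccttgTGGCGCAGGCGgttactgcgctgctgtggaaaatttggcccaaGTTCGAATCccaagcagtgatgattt
C41C4.11 (chrII:8107256-8107380, minus strand): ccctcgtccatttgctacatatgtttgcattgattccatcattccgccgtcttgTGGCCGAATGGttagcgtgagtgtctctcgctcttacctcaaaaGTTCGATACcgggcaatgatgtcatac
C04G6.12 (chrII:5105217-5105341, minus strand): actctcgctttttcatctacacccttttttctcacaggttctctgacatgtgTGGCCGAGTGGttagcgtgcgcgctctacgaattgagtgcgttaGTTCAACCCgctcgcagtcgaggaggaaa
H04D03.5 (chrIII:10432233-10432357, plus strand): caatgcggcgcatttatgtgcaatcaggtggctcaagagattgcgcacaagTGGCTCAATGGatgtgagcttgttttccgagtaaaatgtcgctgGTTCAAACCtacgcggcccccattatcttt
Y59E1B.14 (chrX:1891399-1891523, plus strand): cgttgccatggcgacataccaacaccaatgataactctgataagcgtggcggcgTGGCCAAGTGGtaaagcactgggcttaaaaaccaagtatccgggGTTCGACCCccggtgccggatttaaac
The next 6 start regions also lie at a reproducible summit but hold no exact pair. Capitals mark a lone match to the A box consensus in T06C12.16 and W01C9.6 and a lone B box in F30H5.4, while the lone A box match of K07C10.2 lies upstream of the stretch shown.
T06C12.16 (chrV:15873912-15874036, minus strand): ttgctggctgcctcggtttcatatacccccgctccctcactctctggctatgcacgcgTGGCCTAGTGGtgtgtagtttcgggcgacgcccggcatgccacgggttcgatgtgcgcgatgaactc
F30H5.4 (chrIII:502694-502818, plus strand): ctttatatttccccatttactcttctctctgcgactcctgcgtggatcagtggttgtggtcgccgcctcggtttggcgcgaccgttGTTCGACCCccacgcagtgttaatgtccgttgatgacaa
W01C9.6 (chrII:8547099-8547223, plus strand): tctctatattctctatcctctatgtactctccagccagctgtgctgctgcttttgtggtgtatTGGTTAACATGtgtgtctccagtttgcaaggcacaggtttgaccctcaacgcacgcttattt
Y53F4B.48 (chrII:15166014-15166138, minus strand): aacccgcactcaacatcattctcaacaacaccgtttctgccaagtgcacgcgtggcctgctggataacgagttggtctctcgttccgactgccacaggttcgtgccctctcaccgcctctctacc
T04A8.17 (chrIII:4689757-4689881, minus strand): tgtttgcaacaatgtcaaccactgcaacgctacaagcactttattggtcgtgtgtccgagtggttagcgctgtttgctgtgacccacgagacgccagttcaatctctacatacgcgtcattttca
K07C10.2 (chrII:11167107-11167231, plus strand): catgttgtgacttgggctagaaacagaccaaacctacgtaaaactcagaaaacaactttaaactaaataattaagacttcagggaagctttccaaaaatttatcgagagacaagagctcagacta

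**Figure D1:**
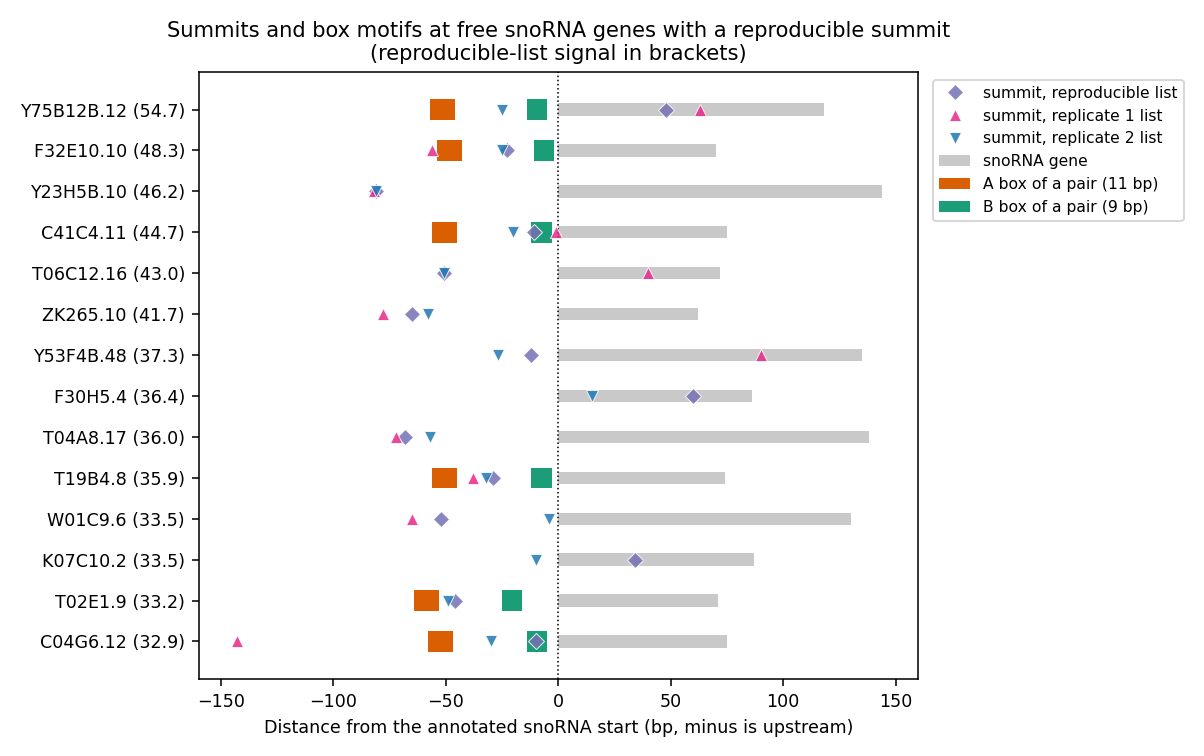
Position of peak summits and box motifs at the 14 free snoRNA genes with a reproducible summit, in bp from the annotated start with upstream to the left, ordered by reproducible-list signal, which is given in brackets. Diamonds, up triangles and down triangles are summits of the reproducible, replicate 1 and replicate 2 lists, grey bars are the genes, and orange and green blocks are A and B boxes of a pair. All reproducible summits lie between 81 bp upstream and 60 bp downstream of a start, and 6 of the 14 genes hold a pair.

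The signal of a peak is the authors' deposited value, whose scale is not stated, so it ranks peaks within a list and is not compared between lists. The reproducible peaks of the 14 free snoRNA genes had signals of 32.9 to 54.7 with a median of 36.8, against 32.6 to 97.5 with a median of 37.5 over all 193 peaks of that list. They ranked 17 to 187, and 6 of 14 were at or above the list's median. They therefore spread over the list and are not concentrated among its strongest peaks. In the longer combined list the median signal of the 34 free genes was 27.2, against a list median of 19.5, and 30 of 34 were at or above it.

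The highest signal at a free snoRNA gene was at Y75B12B.12 (WBGene00045129, chromosome V 15190976 to 15191093, minus strand), which lies between protein-coding genes. Its reproducible summit had a signal of 54.7 and lay 48 bp inside the gene. Its signal was 18.4 in replicate 1, at rank 160, and 33.2 in replicate 2, at rank 27. The replicate 2 summit lay 25 bp upstream of the start, between the A and B boxes shown above. F32E10.10 (WBGene00044947, chromosome IV 7574122 to 7574191, plus strand) followed with 48.3 in the reproducible list, 26.6 in replicate 1 and 23.3 in replicate 2. It was the highest free snoRNA gene in replicate 1, at rank 22. Its reproducible summit lay 23 bp upstream of the start, and the nearest protein-coding start, 1619 bp away, was that of cec-4, a chromodomain protein that anchors heterochromatin at the nuclear edge.

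Y23H5B.10 (WBGene00045093, chromosome I 2514168 to 2514311, minus strand) had a signal of 46.2 in the reproducible list, 19.4 in replicate 1 and 25.2 in replicate 2. Its 3 summits lay 81 to 82 bp upstream of the start, and 81 bp was the largest distance among the 14. C41C4.11 (WBGene00045160, chromosome II 8107196 to 8107270, minus strand) had 44.7, 16.4 and 29.0 in the same lists. T06C12.16 (WBGene00045140, chromosome V 15873855 to 15873926, minus strand) had 43.0, 17.1 and 29.5. ZK265.10 (WBGene00045150, chromosome I 8259437 to 8259498, minus strand) had 41.7, 19.5 and 20.2. These 6 genes, Y75B12B.12 to ZK265.10, are the ones above the list's median, and all 6 had a summit in both replicates. Y75B12B.12, F32E10.10 and Y23H5B.10 were also the only free snoRNA genes found among the 193 strongest peaks of each replicate taken alone.

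The other 8 had reproducible signals of 32.9 to 37.3. Y53F4B.48 (chromosome II 15165894 to 15166028, minus strand) led them with 37.3, with 11.4 in replicate 1 at rank 3034 and 23.4 in replicate 2 at rank 115. T19B4.8 (chromosome I 5707046 to 5707119, plus strand) had 35.9, 15.4 and 23.4 in the reproducible, replicate 1 and replicate 2 lists. Both lie between protein-coding genes, as do 10 of the 14. F30H5.4 (chromosome III 502804 to 502889, plus strand), K07C10.2 (chromosome II 11167217 to 11167303, plus strand) and T02E1.9 (chromosome I 8224474 to 8224544, plus strand) had reproducible signals of 36.4, 33.5 and 33.2. Their replicate 2 signals were 32.1, 26.0 and 22.3, and none had a replicate 1 summit in the window. The nearest replicate 1 summit lay 2413 bp from the start of F30H5.4, 5641 bp from K07C10.2 and 319 bp from T02E1.9.

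A few of the 14 lie over a protein-coding gene. C04G6.12 (chromosome II 5105157 to 5105231, minus strand) sits antisense in an intron of mpk-2, a mitogen-activated protein kinase gene, and had the lowest reproducible signal of the 14, 32.9, with 15.4 in replicate 1 and 21.8 in replicate 2. T04A8.17 (chromosome III 4689634 to 4689771, minus strand) sits antisense in an intron of ppat-1 and had 36.0, 11.1 and 20.7. W01C9.6 (chromosome II 8547209 to 8547338, plus strand) overlaps the opposite-strand globin gene glb-27 and had 33.5, 15.6 and 22.2. T02E1.9 partly overlaps the opposite-strand spe-12, a gene of sperm activation. Noncoding genes on the opposite strand also overlap Y23H5B.10, T19B4.8, C41C4.11, Y53F4B.48 and K07C10.2. Over all free snoRNA genes, those with a reproducible summit by place were 10 of 124 between protein-coding genes, 2 of 33 antisense within a protein-coding gene, 2 of 5 that partly overlap an opposite-strand gene, and 0 of 1, T23G11.12, that partly overlaps a same-strand gene. By chromosome they were 4 of 38 on I, 5 of 36 on II, 2 of 16 on III, 1 of 31 on IV, 2 of 19 on V and 0 of 23 on X, with 2 of 23 on X in the combined list.

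The −log10 of the q-value that the authors deposited has a ceiling in each list, which 633 peaks share in replicate 2 and 44 in replicate 1, so it ranks nothing above that. In replicate 2 all 14 genes were at the ceiling of 3.10. In replicate 1 it spanned 0.0664 at T04A8.17 to 1.94 at F32E10.10 over the 11 genes with a summit. F32E10.10 was the one gene of the 14 at the ceiling of both lists.

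Summits lay close to the snoRNA starts and mostly just upstream. The median position of the 14 reproducible summits was 26 bp upstream, 11 were upstream of the start and 3, at Y75B12B.12, F30H5.4 and K07C10.2, were inside the gene. The window edge played no part in this count, since the largest distance counted was 81 bp and the nearest reproducible summit not counted lay 2245 bp from a free snoRNA gene, F07A11.15. In the combined list the median was 13.5 bp upstream, 28 of 34 lay within 100 bp, and the largest distance counted was 173 bp while the nearest not counted was 242 bp away. The peaks themselves are wide, with a median of 370 bp in both lists, and the marked summit is the centre of the peak in every reproducible and combined peak. A summit position is therefore the middle of a wide call and not a resolved binding site.

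The snoRNA start was the nearest annotated start of any gene to all 14 reproducible summits. Starts of opposite-strand noncoding RNA genes were also near some of them. These lay 53 bp from the K07C10.2 summit, 103 bp from that of C41C4.11, 107 bp from that of T19B4.8 and 149 bp from that of Y53F4B.48. No protein-coding start lay within 200 bp of any of the 14 summits. The closest was 251 bp away, at Y75B12B.11 beside Y75B12B.12, with a median of 1260 bp. C41C4.11 and Y53F4B.48 had a protein-coding start about as near, chst-1 at 310 bp and the glutathione S-transferase gene gst-27 at 309 bp. Others were far away, such as ptr-13, 4770 bp from the K07C10.2 summit, and F30H5.3, 9353 bp from the F30H5.4 summit, and the largest distance was 16258 bp. Among the 34 combined summits the snoRNA start was nearest for 32, and for F59C6.15 and W06H8.17 the start of a noncoding RNA gene, F59C6.19 or W06H8.13, was nearer. No annotated tRNA gene started within 1000 bp of any of the 14 reproducible summits.

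K07C10.2 differs from the other 13 in its annotation. It lies inside the noncoding RNA gene K07C10.3 and the long noncoding RNA gene K07C10.8 on its own strand and overlaps K07C10.6 on the other strand. Both C/D boxes, the C box core TGATGA near the 5′ end and the D box CTGA near the 3′ end, were found on its opposite strand and not on its annotated one, and it was the only free snoRNA gene with that arrangement. Its annotated strand, its opposite strand, and F30H5.4 as a gene with both boxes on its own strand are shown with the boxes in capitals where they match, all read from RefSeq WBcel235, K07C10.2 at chrII:11167217-11167303 and F30H5.4 at chrIII:502804-502889.
K07C10.2, annotated plus strand: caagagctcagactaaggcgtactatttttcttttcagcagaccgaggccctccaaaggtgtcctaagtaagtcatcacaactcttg
K07C10.2, opposite strand: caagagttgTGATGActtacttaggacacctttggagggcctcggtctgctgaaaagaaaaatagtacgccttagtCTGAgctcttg
F30H5.4, plus strand: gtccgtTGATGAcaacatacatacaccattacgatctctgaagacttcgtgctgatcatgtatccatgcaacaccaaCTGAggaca

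The 14 genes were of both snoRNA classes by these letters. With 1 mismatch allowed in the C box, within the first 25 bases, and CTGA within the last 20, 4 of 14 held both boxes, namely Y75B12B.12, C41C4.11, T06C12.16 and F30H5.4, against 23 of 163 free snoRNA genes or 14.1%. ACA placed 3 bases before the end, as in H/ACA snoRNAs, was found in Y53F4B.48, T04A8.17 and W01C9.6, against 13 of 163 free genes or 7.98% and 45 of 183 hosted genes or 24.6%. The other genes held neither arrangement in these windows, which says only that these letters are not there. Genes with a reproducible summit were shorter, with a median of 80.5 bases and a range of 62 to 144, while those without had a median of 135.

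The A and B boxes were searched from 150 bp upstream to 20 bp downstream of each start, on the strand of the gene. They are the internal promoter of tRNA genes, where the factor TFIIIC binds, and in some snoRNA genes they lie upstream of the mature RNA. The B box GTTCNANNC was found at 8 of the 14 genes with a reproducible summit or 57.1%, at 14 of 149 without or 9.40%, and at 5 of the 91 with no summit in any list or 5.49%. Over all nuclear genes its share in equal windows was 2.63%, and over hosted snoRNA genes it was 18 of 183 or 9.84%. Hosted genes showed the same order, with the B box at 6 of 12 with a reproducible summit and at 12 of 171 without or 7.02%. A stricter form of the A box, with fewer free letters than the general consensus, was found at 3 of 14, at 8 of 163 free genes or 4.91%, and at 0.343% of all genes.

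A pair, meaning the general A box consensus with a B box starting 20 to 80 bp downstream of it on the same strand, was found at 16 free snoRNA genes, which is 9.82%, at 12 hosted genes or 6.56%, and at 0.166% of all nuclear genes. On the opposite strand the pair was found at 0 of 163 free genes, and at 0.177% of all nuclear genes. In tRNA genes, searched from 20 bp upstream to 100 bp downstream of the start, 563 of 612 or 92.0% held it. The spacing was regular at the 16 free genes. The A box began 46 to 76 bp upstream of the start, the B box 10 to 31 bp upstream, and the boxes began 36 to 45 bp apart with a median of 44. None of these 16 starts had an annotated tRNA start within 200 bp. The consensus and the spacing were chosen after the start regions had been seen, so all counts and signals by pair, here and below, describe these genes and test nothing.

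Free snoRNA genes with a pair more often had a summit than those without, in all 4 lists. The lists share data, since the combined and reproducible lists come from both replicates, so they are not 4 separate results. In the reproducible list it was 6 of 16 or 37.5% with the pair, against 8 of 147 or 5.44% without. In the combined list it was 11 of 16 or 68.8%, against 23 of 147 or 15.6%. In replicate 1 it was 8 of 16, against 25 of 147 or 17.0%, and in replicate 2 it was 12 of 16, against 54 of 147 or 36.7%. Hosted snoRNA genes showed the same order of shares in all 4 lists. Among them 10 of 12 with a pair or 83.3% had a combined summit, against 27 of 171 or 15.8% without. Of the 20 free genes with a combined but no reproducible summit, 5 held the pair, against 5 of 129 with no combined summit.

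Where a free gene had a summit, the median signal was higher with the pair than without in each list. The median replicate 2 signal was 22.0 with the pair over 12 genes, against 8.35 without over 54 genes. In replicate 1 it was 15.4 over 8 genes, against 11.1 over 25. In the combined list it was 32.9 over 11 genes, against 24.8 over 23, and in the reproducible list 40.3 over 6, against 36.8 over 8. Hosted genes had the same order in the combined and single-replicate lists, but in the reproducible list their median was 35.2 with the pair over 5 genes, against 45.9 without over 7. The groups overlap in each list, as the plot of signal against summit position shows. The start windows also differed in base composition, which moves with the boxes. Their median GC content was 49.4% at the 14 genes, 44.1% at free genes with no reproducible summit and 41.2% at those with no summit in any list, and the part of GC content in these counts was not tested.

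**Figure D2:**
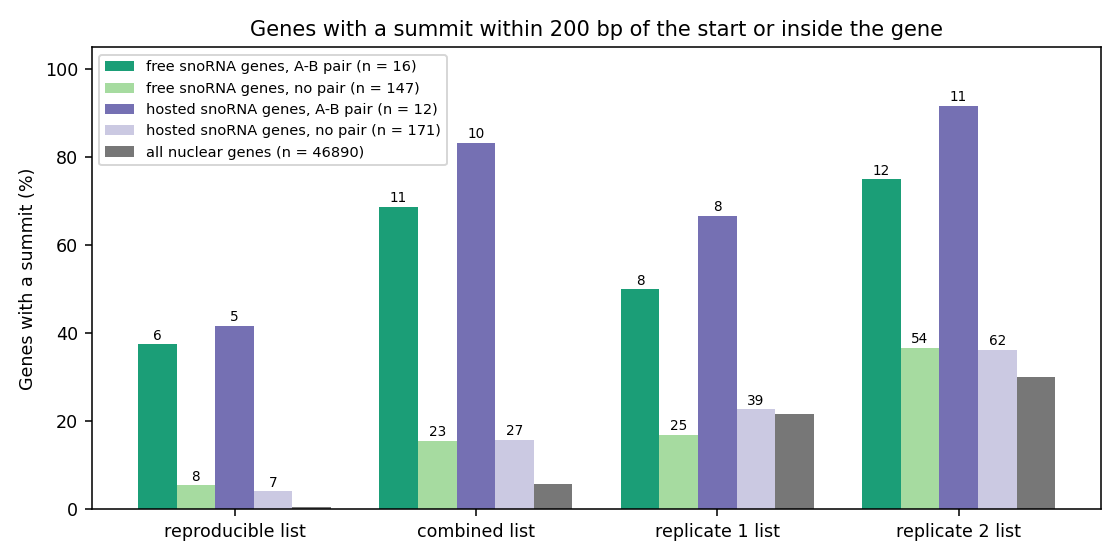
Share of genes with a summit within 200 bp of the start or inside the gene, in percent, for each of the 4 peak lists. Bars are free snoRNA genes with and without an A and B box pair, hosted snoRNA genes with and without it, and all nuclear genes, with the number of genes with a summit above each snoRNA bar. In every list both kinds of snoRNA gene stand higher with the pair, such as 68.8% against 15.6% of free genes in the combined list. The pair was defined after start regions had been seen and the lists share data, so the bars are a description.

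The 6 genes with both a pair and a reproducible summit were Y75B12B.12, F32E10.10, C41C4.11, T19B4.8, T02E1.9 and C04G6.12. At 5 of these 6 the reproducible summit lay between the start of the A box and the end of the B box. The exception was Y75B12B.12, whose reproducible summit was inside the gene. The replicate 2 summits of those 5 also lay between the boxes. In replicate 1 only that of T19B4.8 did, 38 bp upstream of the start. Replicate 1 summits of F32E10.10, C41C4.11 and C04G6.12 lay outside the boxes, 56, 1 and 143 bp upstream of the start, and T02E1.9 had none. The 6 reproducible summits lay between 5.5 bp upstream and 79.5 bp downstream of the midpoint of the pair, with a median of 12.25 bp downstream. Over the 11 genes with a combined summit, 8 lay between the boxes, and all 11 together ranged from 76.5 bp upstream to 79.5 bp downstream of the midpoint. Of the 5 hosted reproducible summits at a gene with a pair, 0 lay between the boxes, and their median was 53.5 bp upstream of the midpoint. Hosted summits of the other lists were not placed against the boxes, so no general difference in position is read from these 5. The free genes with a pair and a combined but no reproducible summit were T03F7.8, ZK484.9, Y39G10AR.24, F12F6.11 and W03C9.9. The pair was not enough for a summit to be listed. H04D03.5, ZC395.12, Y59E1B.14 and Y6B3B.15 held it and had no summit in any list, and H04D03.5 and Y59E1B.14 are shown among the sequences above.

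A looser search counted 1 mismatch in each box as a match. It found a pair at 12 of 14 genes with a reproducible summit or 85.7%, all but ZK265.10 and K07C10.2, and at 39 of 149 without or 26.2%. It is far less specific, since 16.9% of all nuclear genes held it. A run of TTTT, which ends polymerase III transcripts, was found within 30 bp past the end of 10 of 14 genes or 71.4% and of 67 of 149 without a reproducible summit or 45.0%, against 46.2% of all nuclear genes and 98.9% of tRNA genes. Hosted genes held the run at 11 of 12 with a reproducible summit or 91.7%, and at 95 of 171 without or 55.6%. TATAAA, the TATA box of many polymerase II promoters, was found between 150 bp upstream and 20 bp downstream of the start at 1 of 14, at 18 of 163 free genes and at 15.6% of all genes.

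**Figure D3:**
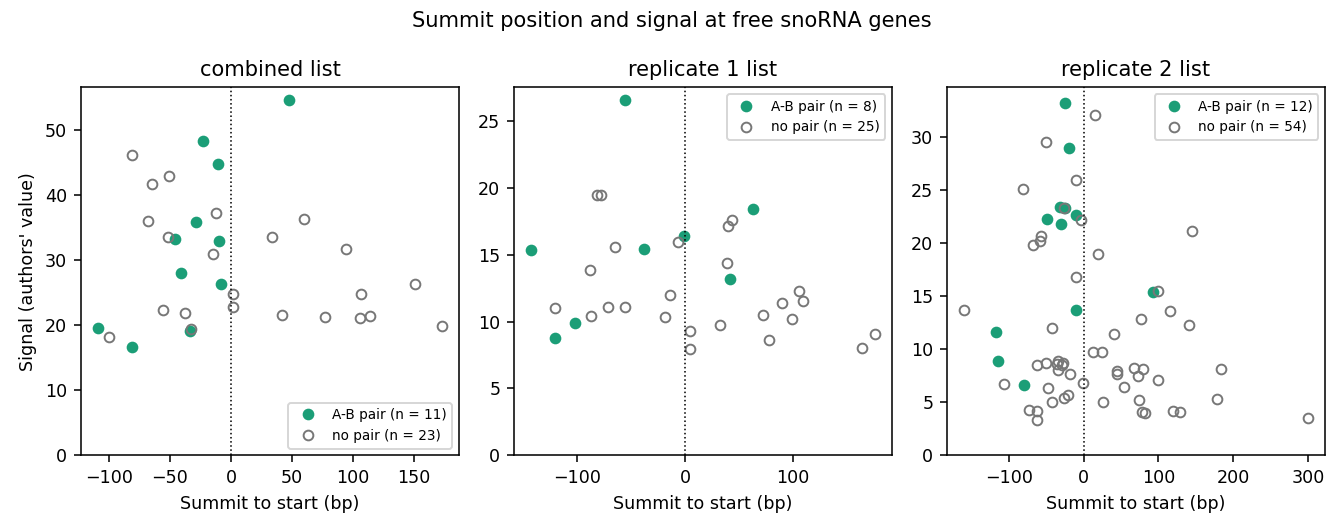
Authors' signal value of the peak, on its own scale in each list, against the distance in bp from the annotated snoRNA start to the summit, minus for upstream, for free snoRNA genes in the combined, replicate 1 and replicate 2 lists. Filled points are genes with an A and B box pair and open points are genes without. The pair genes sit mostly upstream in the combined and replicate 2 lists, where their medians are 32.9 and 22.0. The highest open points in these lists, at 46.2 and 32.1, stand under the highest filled ones, at 54.7 and 33.2. The lowest combined point, at 16.7, is also a filled one, and the lowest open one there is at 18.2.

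Another 20 free snoRNA genes had a summit in the combined list and none in the reproducible one. F25H2.15, between protein-coding genes, was highest with a combined signal of 31.7, 17.6 in replicate 1 and 15.5 in replicate 2, just under the lowest reproducible signal of 32.6. K02C4.8 followed with 30.9, and its summit lay 15 bp upstream of the start. T03F7.8, antisense in an intron of the cuticlin-like gene cutl-18, had 28.1 in the combined list and 22.7 in replicate 2, with no replicate 1 summit. The other 17 had 26.4 or less. ZK484.9 in the ABC transporter gene haf-9 and F43A11.8 between protein-coding genes had combined signals of 26.4 each, and ZK20.9 and B0334.12, the second within the potassium channel gene twk-5, had 24.8 and 24.7. ZK643.9 had 22.8, H09I01.2 had 22.4 and C53B7.8, on chromosome X, had 21.9. Of the 20, 16 had a summit in replicate 1 and 19 in replicate 2, and 91 of the 163 free snoRNA genes had no summit in any of the 4 lists.

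The replicates shared part of their free snoRNA genes. A summit was found in both for 27 genes, in replicate 1 only for 6 and in replicate 2 only for 39, so the shared genes were 81.8% of those of replicate 1 and 40.9% of those of replicate 2. At the 27 shared genes the replicate summits were a median of 32 bp apart, and 19 were within 50 bp. Across these 27 genes the signals of the replicates had a Pearson r of 0.659 and a Spearman rho of 0.683, as a description, since all points share the same pair of libraries. The 5 highest in replicate 1 were F32E10.10, ZK265.10, Y23H5B.10, Y75B12B.12 and F25H2.15, and the 5 highest in replicate 2 were Y75B12B.12, F30H5.4, T06C12.16, C41C4.11 and K07C10.2. Y75B12B.12 was the only gene in both of these groups.

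The count of 14 rested mainly on replicate 2. All 14 genes had a replicate 2 summit and 11 had one in replicate 1. Among the 193 strongest peaks of replicate 2 alone there were 14 free snoRNA genes, and 12 of them were among the 14 reproducible ones. Among the 193 strongest peaks of replicate 1 alone there were 4, namely F32E10.10, Y23H5B.10, Y75B12B.12 and ZK265.10. Nothing in the labels says that the replicates came from separate cultures, so their spread may be partly technical.

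**Figure D4:**
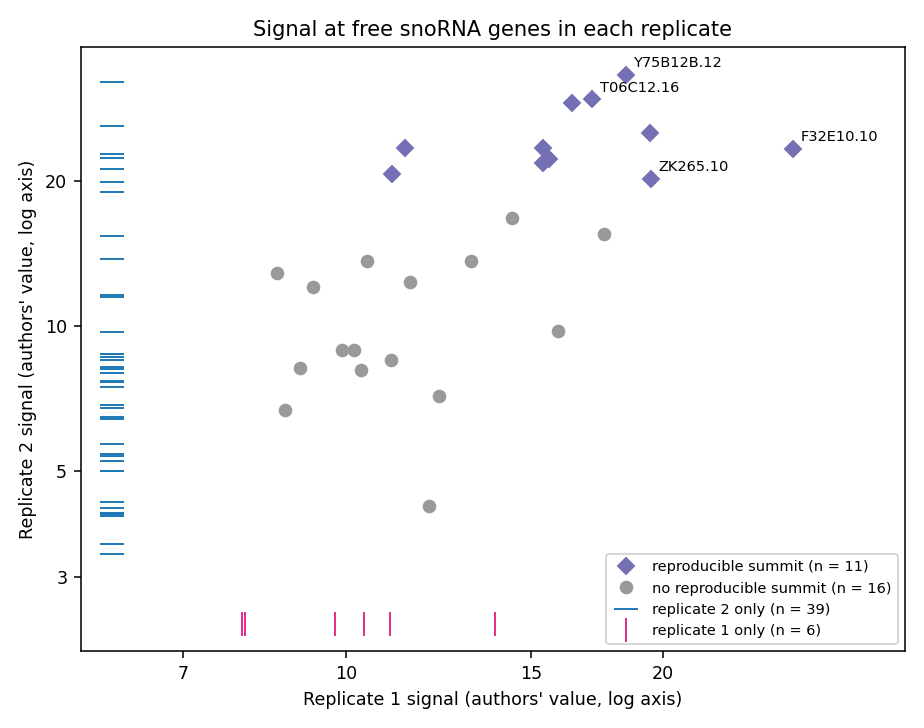
Authors' signal value at free snoRNA genes in replicate 1 (horizontal) and replicate 2 (vertical), both on log axes. Diamonds and circles are the 27 genes with a summit in both replicates, with and without a reproducible summit, and ticks at the left and lower edges are the 39 genes found in replicate 2 only and the 6 found in replicate 1 only. The 11 genes with a reproducible summit lie above 20 in replicate 2 and spread from 11.1 to 26.6 in replicate 1.

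Hosted snoRNA genes, the class most like them, had shares within a few points of theirs, in either direction. In the reproducible list it was 14 of 163 free genes or 8.59%, against 12 of 183 hosted genes or 6.56%, and in the combined list 20.9% of free genes, against 20.2% of hosted genes. In replicate 1 it was 20.2% of free genes, against 25.7% of hosted genes, and in replicate 2 40.5% of free genes, against 39.9% of hosted genes. Reproducible summits lay a median of 26 bp upstream of free genes, against 71 bp upstream of hosted genes, and their median signal was 36.8 at free genes, against 43.6 at hosted genes. Neither difference was tested. The highest hosted signals were 68.4 at ZK994.7 in the peroxidasin gene pxn-1 and 63.4 at C51F7.3 and C51F7.4 in frm-7, which share 1 peak. Others were K11C4.6 in the beta-spectrin gene unc-70 at 53.8, F26D10.24 in the heat shock gene hsp-1 at 45.9, and C10C6.8 in catp-8 at 45.7. The remaining 6 had 33.4 to 41.6, namely Y37E3.20 in pcyt-2.1, ZK546.18 in mdt-4, C05D2.15 in madf-11, C02F5.15 in fbxl-1 and rfs-1, M106.6 in mix-1 and F11A10.9 in rbm-34.

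Among other small RNA genes, tRNA genes had a reproducible summit at 14 of 612 or 2.29% and a combined one at 137 of 612 or 22.4%. Spliceosomal small nuclear RNA (snRNA) genes had a reproducible summit at 6 of 129 or 4.65%, and microRNA genes at 0 of 261. The reproducible share was thus higher at free snoRNA genes, 8.59%, than in these 3 classes, while the combined share, 20.9%, was slightly under that of tRNA genes. Many tRNA genes are near-identical copies, whose reads a mapper can split or drop, and how the authors treated such reads is not known here.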

How the data were processed

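Tagged ALY-2 ChIP-seq peak lists of both replicates of 1 group were used, with chromatin fragmented by sonication, per the labels. Per the text deposited with the samples, the authors derived a permissive list of peaks and background for each replicate and for both combined, with a control alignment, and a list past the optimal IDR threshold, all on ce11. The signal column is the authors' deposited value per peak, its scale not stated. A further deposited column holds the −log10 q-value. The summit offset is also deposited. The aligner and peak caller, with versions, are not given in the sources used. Depth is unknown. Lists in ce10 were not used, and no coordinate was converted. No control sample values were used.

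Free snoRNA genes, all other genes and distances to starts came from Ensembl release 115, and sequences came from RefSeq WBcel235. Distances are measured on the strand of the snoRNA. Where several summits fell in a window a single summit was taken, which was not always the one nearest the start. At F59C6.15 in replicate 2, for example, the summit taken lay 145 bp downstream of the start, while another lay 55 bp upstream. Counts were described beside the share of all 46890 nuclear genes, with no test, and the counting was tested on simulated data. Genes were named if they had a reproducible summit, were among the 10 highest combined-list signals without one or the 5 highest of a replicate, lay at the window edge, were the nearest protein-coding gene, were hosted with a reproducible summit, or were among the top 3 of the list of particle proteins. The particle protein genes snu-13 and fib-1 and genes with a box pair were named after their values were seen. The genes and lists were chosen with earlier results of these data known. The general A box consensus, its pairing with the B box, the looser pair and the C box with 1 mismatch were added after the sequences were seen. Alternatives were windows of 100 and 500 bp, any overlap of the peak, a signal threshold at the list median, no same-strand overlap at all, and each replicate alone. Python 3.11.15, numpy 2.4.6, pandas 2.3.3 and matplotlib 3.10.9 were used.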

Additional observations from a re-analysis of the deposited data

How the results depend on the processing

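Of 33 alternatives, 28 left a count within 1.5 times, or a median distance within 29.7 bp, and 5 did not. The limit of 29.7 bp is the standard deviation of the medians without replicate 1 and without replicate 2, not the spread among the 14 summits. Those medians are themselves among the alternatives, so for them the limit is not an independent one. Windows of 100 and 500 bp, any overlap of the peak, and leaving out genes with any same-strand overlap each gave 14 free genes with a reproducible summit. Requiring a signal at or above the list's median left 6. With the 193 strongest peaks of 1 replicate in place of the reproducible list, the count was 4 without replicate 2 and 14 without replicate 1, and for hosted genes it was 6 and 12. The median distance to the start was then −67 bp without replicate 2 and −25 bp without replicate 1, against −26 bp, minus for upstream. The replicate 1 count was 52 with a window of 500 bp, against 33. In the combined list the count was 30 to 38 over all alternatives, against 34. No paired analysis was possible because the design has 1 group. The cause of these changes was not tested. Without read depths or control values, a gene with no listed summit cannot be told apart from one whose signal fell under the authors' threshold.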

Other observations

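The protein genes of the snoRNA particles were looked up as a list of 10, covering the box C/D core proteins, the H/ACA core proteins and the assembly factors, and all 10 were matched in the annotation. None had a reproducible summit within 200 bp of the start or inside the gene, 4 had one in the combined list, 5 in replicate 1 and 7 in replicate 2. By the same rule 0.666% of all protein-coding genes had a reproducible, 10.1% a combined, 39.7% a replicate 1 and 51.6% a replicate 2 summit, so the single-replicate counts are near that background and nothing is read from them. The combined summit of ruvb-1, an AAA ATPase that helps assemble the particles, lay 47 bp upstream of its start with a signal of 24.6. The summits of nol-58 and nol-56, core proteins of box C/D particles, had signals of 23.7 and 20.01 and lay inside the gene, 766 and 1467 bp downstream of the start. The summit of snu-13, which binds the k-turn of C/D snoRNAs, had 18.5 and lay 47 bp downstream of the start. fib-1, the methyltransferase of box C/D particles, had a summit in replicate 1, with a signal of 13.1, and in replicate 2, with 9.16, but not in the combined list.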
